A study of Mus musculus with 17 samples.

Results

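The genes described here are the partners through which the checkpoint kinase Atr acts: its binding partner Atrip, its activators Topbp1 and Etaa1, the clamp subunits Rad9a, Hus1 and Rad1, the clamp loader Rad17, the effector kinase Chek1, and Wee1 and Cdc25a, which set the activity of the cyclin-dependent kinases. They were taken as a named list of 10 genes out of 31438 genes measured, and all 10 passed the filter on low counts in every comparison. RNA was measured by poly-A RNA sequencing of whole cerebella of C57BL/6 mice at postnatal day 3. All 4 groups carried Math1-Cre, a recombinase active in the granule neuron progenitors of the cerebellum. The Atr/Bax/Bak-deleted group carried Atr-loxP/loxP, Bax-loxP/loxP and Bak--/- (5 libraries), and its control, the Bax/Bak-deleted group, carried Bax-loxP/loxP and Bak--/- with no floxed Atr (4 libraries). The Atr/p53-deleted group carried Atr-loxP/loxP and p53-loxP/loxP (5 libraries, of which 4 were used), and its control, the p53-deleted group, carried p53-loxP/loxP alone (3 libraries). Bak was lost in every cell, whereas Atr, Bax and p53 were floxed and lost only where Cre acts, so cells of other lineages in the same cerebellum kept them. The labels do not say which animals the libraries came from, so p-values measure the spread between these samples.

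Atr, held by Atrip on RPA-coated DNA at stalled or damaged replication forks, is switched on along separate routes. In the first, Rad17 with the small Rfc subunits loads the clamp of Rad9, Hus1 and Rad1, and the clamp brings Topbp1 to Atr; in the second, Etaa1 binds RPA and activates Atr directly. Active Atr phosphorylates Chk1, the product of Chek1, which restrains Cdc25a, the phosphatase that activates Cdk1 and Cdk2, while Wee1 phosphorylates and holds back the same kinases. Granule progenitors divide rapidly in the first weeks after birth under Sonic hedgehog.

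The 16 libraries used held 42987953 to 100659645 estimated counts, so that 1 count was worth at most 0.0233 CPM (counts scaled to a common library size). Replicate 3 of the Atr/p53-deleted group held 13601 counts in all and 2 counts over the 10 genes, and was left out. Atr RNA itself averaged 40.0 ± 3.07 CPM in Atr/Bax/Bak-deleted cerebella and 43.4 ± 3.99 CPM in Bax/Bak-deleted cerebella (SD, n = 5 and 4; exact two-sided permutation p = 0.190). It averaged 37.1 ± 2.83 CPM in Atr/p53-deleted cerebella and 37.0 ± 1.11 CPM in p53-deleted cerebella (SD, n = 4 and 3; exact two-sided permutation p = 0.971). With 4 and 3 libraries this two-sided test could not give a p below 0.05. The libraries of each pair of groups overlapped, so total Atr RNA does not check the genotype labels; reads over the floxed exons alone were not analysed here. Bak1 RNA averaged 0.435 CPM in Atr/Bax/Bak-deleted and 0.365 CPM in Bax/Bak-deleted cerebella, against 38.4 CPM in Atr/p53-deleted and 39.7 CPM in p53-deleted cerebella. Bax RNA averaged 32.4 and 34.0 CPM in the Atr/Bax/Bak-deleted and Bax/Bak-deleted groups, against 65.3 and 66.3 CPM in the Atr/p53-deleted and p53-deleted groups. Trp53 RNA was lower in both p53 groups, at 38.5 CPM in Atr/p53-deleted and 37.6 CPM in p53-deleted cerebella, against 69.5 and 68.8 CPM in the Atr/Bax/Bak-deleted and Bax/Bak-deleted groups.

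**Figure D1:**
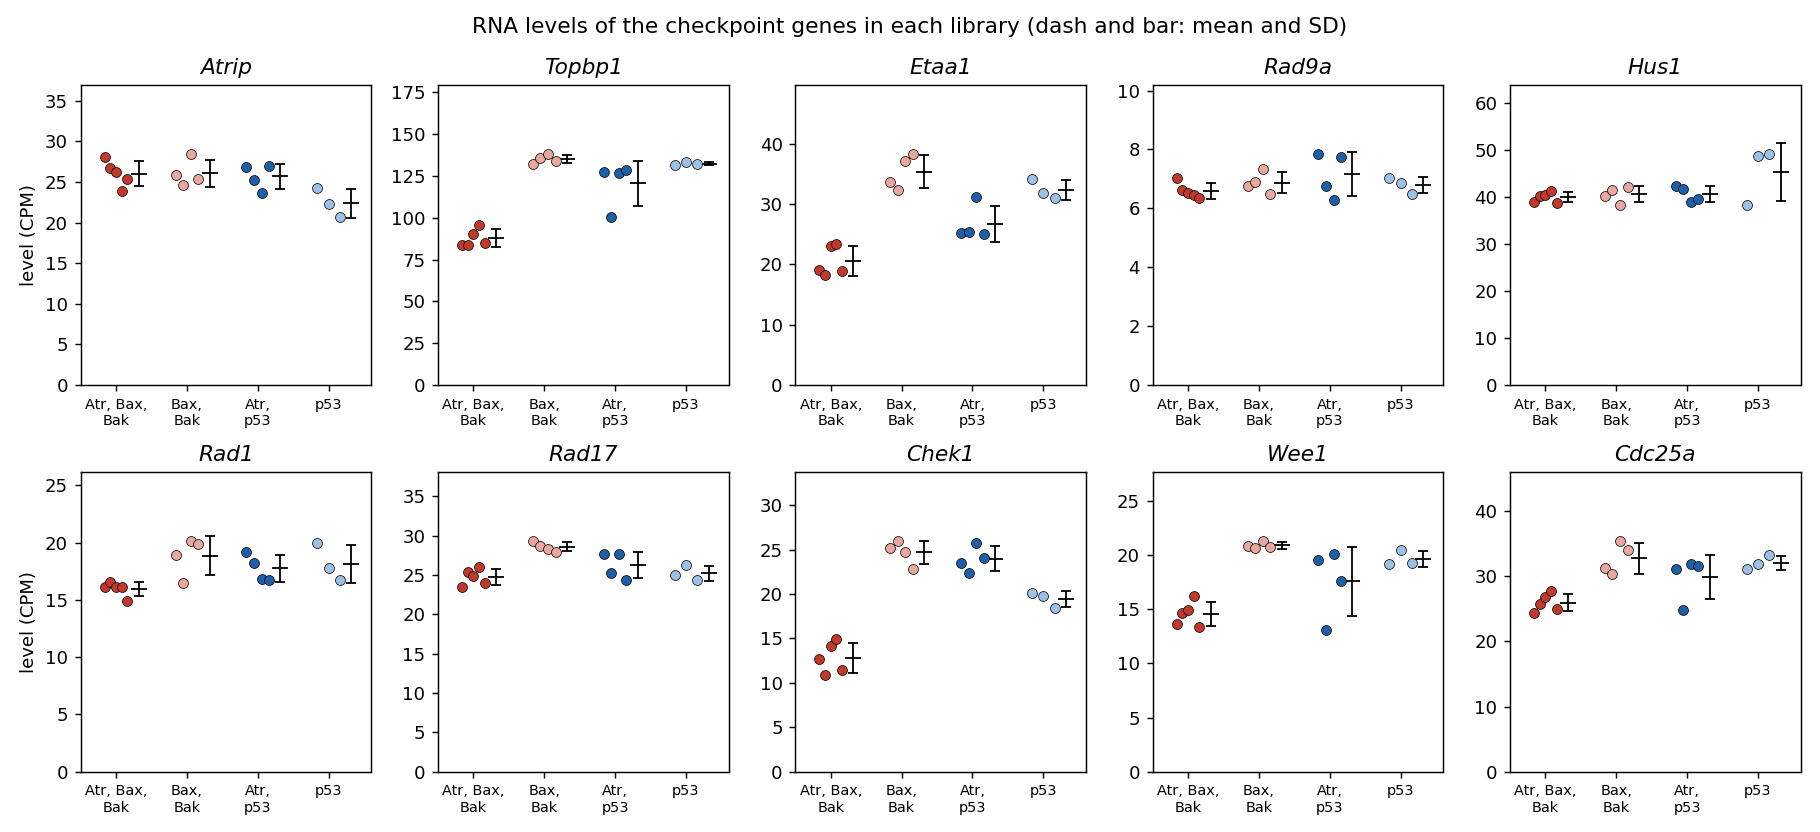
RNA level in CPM (vertical axes, each from 0) of the 10 checkpoint genes in each of the 16 libraries, by group (Atr, Bax, Bak stands for Atr/Bax/Bak-deleted, and so on), with the group mean and SD as a dash and bar. Chek1 lies between 10.9 and 14.9 CPM in Atr/Bax/Bak-deleted cerebella, below the 22.8 to 26.0 CPM of Bax/Bak-deleted cerebella.

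The question put to the Bax/Bak background was which checkpoint genes differ when Atr is deleted together with Bax and Bak, which open the outer mitochondrial membrane in apoptosis. Of the 10 genes, 7 were lower in Atr/Bax/Bak-deleted than in Bax/Bak-deleted cerebella and 0 were higher (edgeR quasi-likelihood test, Benjamini-Hochberg adjusted p below 0.05). Among all 17405 genes tested, 44.5% were called, 22% lower and 22.5% higher. The effector kinase gene Chek1 fell by 47.4%, the most of the 10. The activators followed, Etaa1, which fell by 41.3%, and Topbp1, which fell by 34.3%. Of the genes that counter each other on Cdk1, Wee1 fell by 29.5% and Cdc25a fell by 20.0%, and in the clamp and its loader Rad1 fell by 14.3% and Rad17 fell by 12.4%. Atrip, Rad9a and Hus1 were not called. The median log2 fold change was -0.27 over the 10 genes and 0.04 over all genes tested. Fewer dividing cells and less RNA per cell cannot be told apart in whole cerebella.

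Among the activators, Topbp1, the scaffold that stimulates Atr at the clamp, had 83.7, 83.8, 90.3, 95.9 and 84.8 CPM in Atr/Bax/Bak-deleted cerebella, against 132, 136, 138 and 134 CPM in Bax/Bak-deleted cerebella. The groups were well apart, and the log2 fold change was -0.61 (SE 0.046, edgeR adjusted p = 5.5e-06). Etaa1, the RPA-bound activator, had 19.0, 18.2, 23.1, 23.3 and 19.0 CPM in Atr/Bax/Bak-deleted cerebella and 33.7, 32.4, 37.2 and 38.3 CPM in Bax/Bak-deleted cerebella. All 5 Atr/Bax/Bak-deleted libraries lay below all 4 controls (edgeR adjusted p = 6.05e-05, log2 fold change -0.77, SE 0.089). Atrip, the constant partner of Atr, had 23.8 to 28.1 CPM in Atr/Bax/Bak-deleted and 24.6 to 28.4 CPM in Bax/Bak-deleted cerebella, overlapping over nearly the whole range (log2 fold change 0.02, SE 0.061, edgeR adjusted p = 0.861).

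The clamp and its loader showed smaller differences. Rad9a had 6.33 to 7.03 CPM in Atr/Bax/Bak-deleted and 6.48 to 7.35 CPM in Bax/Bak-deleted cerebella (log2 fold change -0.04, SE 0.081, edgeR adjusted p = 0.708). Hus1 had 38.8 to 41.2 CPM in Atr/Bax/Bak-deleted and 38.4 to 42.3 CPM in Bax/Bak-deleted cerebella (log2 fold change -0.01, SE 0.045, edgeR adjusted p = 0.909). Hus1 in Atr/Bax/Bak-deleted cerebella lay within the range of its controls, and Rad9a overlapped them in part. The remaining subunit, Rad1, had 16.2, 16.5, 16.2, 16.1 and 14.9 CPM in Atr/Bax/Bak-deleted cerebella, against 18.9, 16.5, 20.1 and 19.9 CPM in Bax/Bak-deleted cerebella. Rad1 overlapped through replicate 2 of the controls, and its log2 fold change was -0.22 (SE 0.069, edgeR adjusted p = 0.0212). That call was lost without Atr/Bax/Bak-deleted replicate 5 (edgeR adjusted p = 0.0538), Bax/Bak-deleted replicate 3 (0.0564) or replicate 4 (0.0672), and in sequencing lane 2 alone (0.0528). Rad17, the ATPase that loads the clamp, had 23.5, 25.4, 24.9, 26.0 and 23.9 CPM in Atr/Bax/Bak-deleted cerebella, against 29.3, 28.7, 28.3 and 28.0 CPM in Bax/Bak-deleted cerebella. The groups did not overlap (edgeR adjusted p = 0.00707, log2 fold change -0.19, SE 0.047).

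Among the effectors, Chek1 had 12.7, 10.9, 14.1, 14.9 and 11.5 CPM in Atr/Bax/Bak-deleted cerebella and 25.2, 26.0, 24.7 and 22.8 CPM in Bax/Bak-deleted cerebella. The highest Atr/Bax/Bak-deleted library stood well below the lowest control, and the log2 fold change was -0.93 (SE 0.093, edgeR adjusted p = 2.62e-05). Wee1, the inhibitory kinase of Cdk1, had 13.7, 14.7, 14.9, 16.2 and 13.3 CPM in Atr/Bax/Bak-deleted cerebella, against 20.8, 20.7, 21.3 and 20.7 CPM in Bax/Bak-deleted cerebella. The controls were tightly grouped above every Atr/Bax/Bak-deleted library (log2 fold change -0.50, SE 0.065, edgeR adjusted p = 0.000116). Cdc25a, the phosphatase that opposes Wee1, had 24.4, 25.8, 26.7, 27.7 and 25.0 CPM in Atr/Bax/Bak-deleted cerebella and 31.3, 30.3, 35.4 and 34.0 CPM in Bax/Bak-deleted cerebella. It fell too, so that the kinase and its opposing phosphatase were both lower (log2 fold change -0.32, SE 0.060, edgeR adjusted p = 0.00128). In 6 of the 10 genes (Topbp1, Etaa1, Rad17, Chek1, Wee1 and Cdc25a) every Atr/Bax/Bak-deleted library lay below every Bax/Bak-deleted library, a pattern held by 21.1% of all genes tested.

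The Bax/Bak-deleted controls carried the number series 100019 (replicates 1 and 2) and 1842 (replicates 3 and 4) in their labels, and every Atr/Bax/Bak-deleted library carried 1836, so that the effect of the genotype and that of the series cannot be told apart. With the controls of series 100019 alone the log2 fold change of Chek1 was -0.98 and that of Cdc25a -0.23; with those of series 1842 alone the same quantities were -0.92 and -0.45. All 7 calls held with series 1842 alone, and 6 held with series 100019 alone, where Rad1 gave -0.13 (edgeR adjusted p = 0.210).

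Windows around the annotated starts of 5 genes are printed: Chek1, Topbp1, Etaa1 and Cdc25a, which were lower, and Hus1, which was not called. They do not stand for all lower genes: Rad1 and Rad17 were lower too, held no match and are not printed. RefSeq (GRCm38.p6) windows of 250 bases before to 50 after the start were at hand for 8 of the 10 genes, all but Rad9a and Wee1. Capitals mark exact matches, on either strand, to the letters searched: an E2F-type site (TTTNNCGC), a second form of it (GGCGGGAA, added after the windows had been read), the cell cycle homology region TTTGAA and its variant TTTAAA (which reads the same on both strands), and the CCAAT box. Each line reads 5′ to 3′ in the direction of the gene.
Chek1, chr9:36726609-36726908, minus strand: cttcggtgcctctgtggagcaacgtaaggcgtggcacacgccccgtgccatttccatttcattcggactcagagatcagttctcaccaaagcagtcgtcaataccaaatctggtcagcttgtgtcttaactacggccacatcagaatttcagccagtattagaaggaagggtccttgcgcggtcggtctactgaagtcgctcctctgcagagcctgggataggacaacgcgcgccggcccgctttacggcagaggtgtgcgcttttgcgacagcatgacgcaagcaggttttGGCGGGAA
Topbp1, chr9:103305077-103305376, plus strand: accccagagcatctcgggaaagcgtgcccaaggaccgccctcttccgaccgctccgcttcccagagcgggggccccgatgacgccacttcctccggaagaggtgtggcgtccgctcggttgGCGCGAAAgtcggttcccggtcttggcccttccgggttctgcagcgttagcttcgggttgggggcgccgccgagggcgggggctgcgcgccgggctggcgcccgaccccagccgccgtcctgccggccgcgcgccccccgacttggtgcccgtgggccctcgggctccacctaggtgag
Etaa1, chr11:17953826-17954125, minus strand: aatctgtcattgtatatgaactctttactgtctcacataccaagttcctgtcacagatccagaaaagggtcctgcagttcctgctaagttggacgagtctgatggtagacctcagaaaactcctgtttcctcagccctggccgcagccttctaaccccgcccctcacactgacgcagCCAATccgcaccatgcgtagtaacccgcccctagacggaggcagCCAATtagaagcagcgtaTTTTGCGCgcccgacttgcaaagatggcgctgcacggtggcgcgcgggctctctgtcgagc
Cdc25a, chr9:109875329-109875628, plus strand: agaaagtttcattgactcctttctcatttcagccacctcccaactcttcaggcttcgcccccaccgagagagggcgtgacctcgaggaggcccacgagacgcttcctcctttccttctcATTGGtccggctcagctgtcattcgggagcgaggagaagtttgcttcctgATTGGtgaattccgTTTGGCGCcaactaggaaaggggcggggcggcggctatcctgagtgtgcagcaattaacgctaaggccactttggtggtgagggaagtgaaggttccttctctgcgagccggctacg
Hus1, chr11:9011142-9011441, minus strand: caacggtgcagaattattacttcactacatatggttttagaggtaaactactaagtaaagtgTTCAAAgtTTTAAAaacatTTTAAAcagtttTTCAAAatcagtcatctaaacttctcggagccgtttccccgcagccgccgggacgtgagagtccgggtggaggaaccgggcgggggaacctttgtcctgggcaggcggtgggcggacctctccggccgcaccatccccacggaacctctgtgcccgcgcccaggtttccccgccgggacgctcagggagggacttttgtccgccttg
The first E2F form was found in Topbp1 (starting 129 bases before the annotated start), Etaa1 (11 bases before) and Cdc25a (67 bases before), and 5.17% of the 32851 RefSeq windows of the same length hold it. The second form was found in Chek1 alone among the 8 genes, 42 bases after the start, and 2.19% of all windows hold it. It was chosen after the windows had been read, so that share does not show the match to be unusual. Chek1 held no other match. CCAAT boxes were found in Atrip, Etaa1 and Cdc25a (37.4% of all windows). Hus1 alone held TTTGAA (17.9% of all windows) and TTTAAA (13.2%), all more than 150 bases upstream. A match is a description of letters and not a binding site, and the windows of Rad1 and Rad17 held none of the letters searched.

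The next question was whether the genes differ when Atr is deleted together with p53, the tumour suppressor that responds to DNA damage. None of the 10 genes passed the threshold between Atr/p53-deleted and p53-deleted cerebella (edgeR, 0 of 10 by adjusted p), where 0.0461% of 17348 genes were called. By unadjusted p below 0.05, 2 of the 10 and 6.58% of all genes passed, and DESeq2 also called 0 of 10. The members of this pair were Chek1, which stood above its controls, and Etaa1, which stood below. The median log2 fold change was -0.06 over the 10 genes and 0.01 over all genes tested.

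Chek1 had 23.5, 22.4, 25.8 and 24.1 CPM in Atr/p53-deleted cerebella, against 20.1, 19.7 and 18.4 CPM in p53-deleted cerebella. All 4 Atr/p53-deleted libraries were above all 3 controls, which 3.59% of genes tested showed, and the log2 fold change was 0.31 (SE 0.090, edgeR unadjusted p = 0.00652, adjusted p = 0.541). Etaa1 had 25.1, 25.4, 31.2 and 25.1 CPM in Atr/p53-deleted cerebella and 34.2, 31.8 and 31.0 CPM in p53-deleted cerebella. Replicate 4 of the Atr/p53-deleted group reached the range of the controls, and the log2 fold change was -0.27 (SE 0.104, edgeR unadjusted p = 0.0294, adjusted p = 0.704). Topbp1 had 127, 100.4, 127 and 128 CPM in Atr/p53-deleted cerebella and 132, 133 and 132 CPM in p53-deleted cerebella. Every Atr/p53-deleted library lay below every control, as in 4.62% of genes, but replicate 2 alone lay far below (log2 fold change -0.12, SE 0.101, edgeR adjusted p = 0.848).

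Wee1 had 19.5, 13.1, 20.1 and 17.6 CPM in Atr/p53-deleted cerebella, against 19.2, 20.5 and 19.3 CPM in p53-deleted cerebella. Cdc25a had 31.1, 24.9, 31.9 and 31.6 CPM in Atr/p53-deleted cerebella, against 31.1, 31.8 and 33.2 CPM in p53-deleted cerebella. In both effectors replicate 2 was the lowest library of the group, and neither passed the test (edgeR adjusted p = 0.865 and 0.877). The same replicate had a summed level of 1550 CPM over 15 genes of dividing cells, against 2272, 2080 and 2365 CPM in the other replicates of its group, and its part in the result was not tested. Without it the log2 fold changes were -0.04 for Topbp1, -0.03 for Wee1 and -0.01 for Cdc25a, and 0 of 10 genes were called.

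Atrip had 23.7 to 26.9 CPM in Atr/p53-deleted and 20.7 to 24.2 CPM in p53-deleted cerebella (log2 fold change 0.21, SE 0.093, edgeR adjusted p = 0.753). Hus1 had 42.5, 41.8, 39.0 and 39.6 CPM in Atr/p53-deleted cerebella, against 38.3, 48.9 and 49.2 CPM in p53-deleted cerebella. The low control, replicate 1, carried the same number series in its label (1843) as the Atr/p53-deleted libraries, whereas the other controls carried 1845. With number series in the fit the log2 fold change of Hus1 was 0.10 in place of -0.15. No Atr/p53-deleted library carried 1845, so that fit sets the Atr/p53-deleted libraries against control replicate 1 alone. Rad9a (6.29 to 7.84 CPM in Atr/p53-deleted and 6.48 to 7.03 CPM in p53-deleted cerebella), Rad1 (16.8 to 19.1 and 16.7 to 19.9 CPM in the same order) and Rad17 (24.4 to 27.7 and 24.4 to 26.2 CPM) overlapped between the groups.

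**Figure D2:**
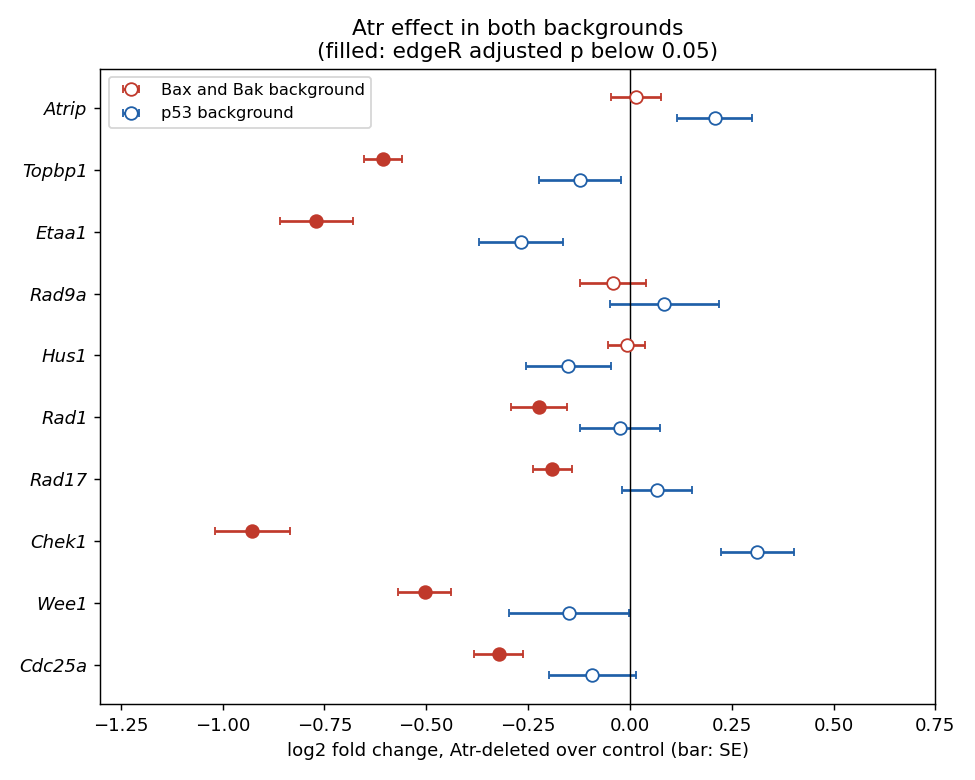
Log2 fold change of Atr-deleted over control libraries (horizontal axis, bars SE) for each checkpoint gene, in the Bax/Bak background (red) and the p53 background (blue); filled points have an edgeR adjusted p below 0.05. Filled points are the 7 genes lower in the Bax/Bak background, and no blue point is filled.

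Whether Atr deletion acted differently in the 2 backgrounds was asked of an interaction term fitted to the 16 libraries, the effect in the Bax/Bak background minus that in the p53 background. It was negative past the threshold for 4 of the 10 genes and positive for 0, where 16.2% of 18166 genes were called, 8.09% negative and 8.08% positive. Chek1 had an interaction of -1.25 in log2 units (edgeR adjusted p = 2.11e-05, SE 0.131). Etaa1 gave -0.51 (SE 0.139, edgeR adjusted p = 0.0197), Topbp1 -0.49 (SE 0.102, edgeR adjusted p = 0.00436) and Rad17 -0.27 (SE 0.085, edgeR adjusted p = 0.0437).

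The calls for Chek1 and Topbp1 held with every library left out in turn. That for Etaa1 was lost without p53-deleted replicate 2 (edgeR adjusted p = 0.0548) or replicate 3 (0.0652), and that for Rad17 was lost without Atr/Bax/Bak-deleted replicate 1 or 5, Bax/Bak-deleted replicate 4, Atr/p53-deleted replicate 1 or 4, or any p53-deleted replicate (edgeR adjusted p from 0.0505 to 0.129). Wee1 gave -0.36 (edgeR adjusted p = 0.121) and Cdc25a -0.24 (edgeR adjusted p = 0.176). Without replicate 2 of the Atr/p53-deleted group, Wee1 gave -0.48 (edgeR adjusted p = 0.00414) and Cdc25a -0.31 (edgeR adjusted p = 0.0195), so both then passed. Without p53-deleted replicate 1, Hus1 gave 0.24 (edgeR adjusted p = 0.0459), against 0.14 with it (edgeR adjusted p = 0.412). Atrip (-0.20), Rad9a (-0.13) and Rad1 (-0.21) were not called.

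The controls were compared with each other as well, Bax/Bak-deleted over p53-deleted. Chek1 alone of the 10 genes was called (18% of 18166 genes were, 9.3% lower and 8.71% higher), at 24.7 ± 1.33 CPM in Bax/Bak-deleted and 19.4 ± 0.880 CPM in p53-deleted cerebella (SD, n = 4 and 3; log2 difference 0.35, SE 0.099, edgeR adjusted p = 0.0235). With p53-deleted replicate 2 or 3 left out the call was lost (edgeR adjusted p = 0.0581 and 0.0950), as it was in sequencing lane 2 alone (log2 difference 0.32, edgeR adjusted p = 0.0627) and when the protein-coding transcripts alone were summed (log2 difference 0.13, edgeR adjusted p = 0.392). Atrip gave 0.22 (edgeR adjusted p = 0.0624) and Rad17 0.18 (edgeR adjusted p = 0.0599). Rad17 passed in lane 2 alone (edgeR adjusted p = 0.0279), so that 1 gene was called there too, but not the same one. Without Atr/p53-deleted replicate 2, which shares the fit, both passed (edgeR adjusted p = 0.0464 and 0.0361). Atrip also passed without Bax/Bak-deleted replicate 2 (0.0433) and without p53-deleted replicate 1 (0.0427), and in that last case Hus1 passed as well (log2 difference -0.27, edgeR adjusted p = 0.0127). In Atrip, Rad17, Chek1 and Wee1, 4 of the 10 genes, every Bax/Bak-deleted library lay above every p53-deleted library, against 15.2% of all genes. The deposited table, the genotype and the number series differ together between these controls and cannot be told apart.

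Levels were compared between genes per length, as TPM, transcript counts scaled to annotated length and to the library. Topbp1 was the most abundant of the 10 genes in every group, at 45.2 ± 1.34 TPM in Atr/Bax/Bak-deleted, 63.4 ± 1.86 TPM in Bax/Bak-deleted, 53.1 ± 11.2 TPM in Atr/p53-deleted and 57.4 ± 1.06 TPM in p53-deleted cerebella (SD, n = 5, 4, 4 and 3). Rad9a was the least abundant, at 6.66 to 7.39 TPM by group mean, with Wee1 (9.86 to 13.7 TPM) and Etaa1 (11.4 to 18.9 TPM) above it in every group. Chek1 was 7th of the 10 genes in Atr/Bax/Bak-deleted cerebella, at 14.6 ± 1.83 TPM, and 2nd in Bax/Bak-deleted cerebella, at 27.0 ± 3.04 TPM. In Atr/p53-deleted cerebella it was 2nd, at 24.5 ± 5.36 TPM, and in p53-deleted cerebella 4th, at 21.7 ± 1.90 TPM. In Bax/Bak-deleted cerebella Chek1, Rad17 (26.5 ± 0.706 TPM) and Rad1 (24.9 ± 1.98 TPM) differed by less than the SD of Chek1.

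Transcript estimates were examined for the genes with several annotated transcripts. The Chek1 counts were divided chiefly over 4 transcripts. The processed transcript Chek1-207 took 41.0% of them in Atr/Bax/Bak-deleted, 40.9% in Bax/Bak-deleted, 38.7% in Atr/p53-deleted and 29.5% in p53-deleted cerebella. The coding transcript Chek1-201 had 3.56 ± 0.400 CPM in Atr/Bax/Bak-deleted and 6.89 ± 1.47 CPM in Bax/Bak-deleted cerebella, and Chek1-205 had 2.19 ± 0.403 and 4.82 ± 0.724 CPM in the same groups. Each of the 4 transcripts thus had a lower mean in Atr/Bax/Bak-deleted cerebella. Summed over coding transcripts alone, the Chek1 fold change in the p53 background was 0.14 on the log2 scale (edgeR adjusted p = 0.868), against 0.31 over all transcripts.

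Atrip and Hus1 depended on which transcripts were summed. The coding transcript Atrip-201 had 11.4 ± 0.296 CPM in Atr/Bax/Bak-deleted and 14.1 ± 0.666 CPM in Bax/Bak-deleted cerebella, without overlap (SD, n = 5 and 4). Atrip-204, annotated to undergo nonsense-mediated decay, took 20.2% of the gene's counts in Atr/Bax/Bak-deleted and 12.6% in Bax/Bak-deleted cerebella. Summed over coding transcripts alone, Atrip gave a log2 fold change of -0.23 (edgeR adjusted p = 0.0102) in the Bax/Bak background and an interaction of -0.52 (edgeR adjusted p = 0.0129). The coding transcript Hus1-201 had 29.9 ± 1.65 CPM in Atr/Bax/Bak-deleted and 33.1 ± 0.900 CPM in Bax/Bak-deleted cerebella, and its decay-prone transcript Hus1-203 had 3.83 ± 1.20 and 0.824 ± 0.789 CPM in the same groups. Over coding transcripts Hus1 gave -0.13 (edgeR adjusted p = 0.0481), so that 9 of the 10 genes were then lower in Atr/Bax/Bak-deleted cerebella. Over all transcripts 22% of all genes tested were lower. The share in the fit of coding transcripts alone is not given here, so the 9 of 10 stands without a like share. Under the alternatives, of which coding transcripts are 1, between 2812 and 4421 genes were called lower. Atrip overlaps the exonuclease gene Trex1 on the same strand over 1802 bases and shares 16.9% of its 31-base words with another gene, so its division among transcripts is uncertain. Rad9a, Rad17 and Wee1 overlap genes on the opposite strand (Ppp1ca, Ak6 and 1600010M07Rik), and the sources used here do not say whether strand was used in counting.

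**Figure D3:**
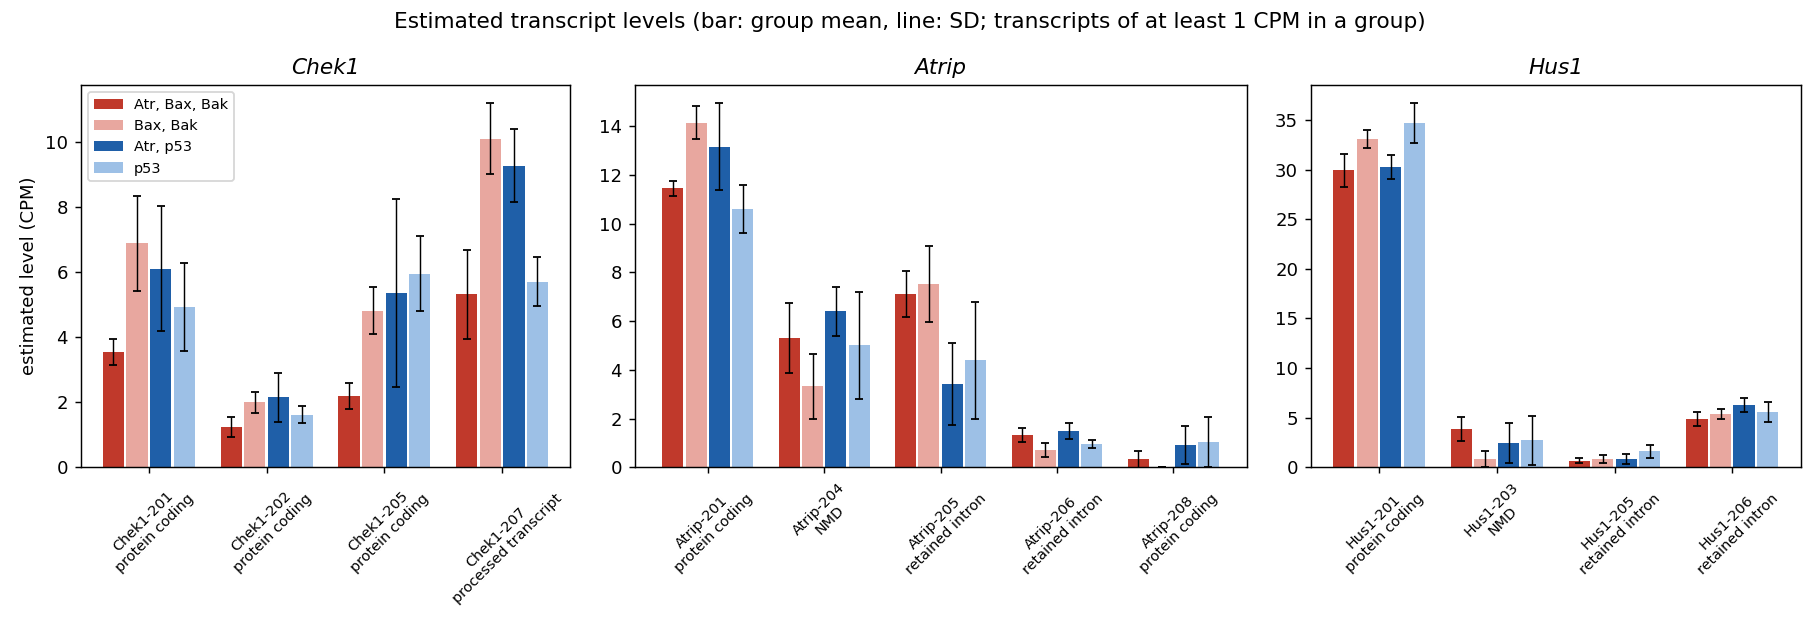
Estimated level in CPM (vertical axes, from 0) of the annotated transcripts of Chek1, Atrip and Hus1 that reach 1 CPM in some group; bars are group means and lines SD. Chek1-201, Chek1-202, Chek1-205 and Chek1-207 all have a lower mean in Atr/Bax/Bak-deleted than in Bax/Bak-deleted cerebella, while Atrip-204 and Hus1-203 have a higher one.

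The other genes of the pathway were taken from a list of 38, of which 37 could be tested. In the Bax/Bak background 27 were lower and 2 higher in Atr/Bax/Bak-deleted cerebella, with a median log2 fold change of -0.41. Of all genes tested, 22% were lower and 22.5% higher. The smallest p-values belonged to the cyclins Ccne2 (-1.04, SE 0.064, edgeR adjusted p = 1.47e-06) and Ccna2 (-1.07, SE 0.080, edgeR adjusted p = 5.41e-06), partners of Cdk2, and to the fork protection gene Tipin (-0.68, SE 0.059, edgeR adjusted p = 1.12e-05). The 2 higher genes were Btrc, a ubiquitin ligase subunit that recognises phosphorylated Cdc25a (0.21, edgeR adjusted p = 0.00529), and the clamp paralog Rad9b (0.41, edgeR adjusted p = 0.0271). The count of higher genes was 0 without Bax/Bak-deleted replicate 2, and 1 in lane 1 alone or with the controls of either number series alone. Rad9b shares 22.2% of its 31-base words with another gene. In the p53 background 0 of the 37 were called by edgeR (0.0461% of all genes were), and 1, Rad9b (0.42), had an unadjusted p below 0.05 (6.58% of all genes). The interaction was called negative for 18 of the 37 and positive for 0, against 8.09% and 8.08% of all genes tested. Its smallest p-values belonged to the mitotic cyclin Ccnb1 (-1.03), its kinase Cdk1 (-0.89) and Tipin (-0.68), with edgeR adjusted p from 0.000107 to 0.000162.

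Genes of dividing cells moved in the same libraries. All 15 genes of that list were lower in Atr/Bax/Bak-deleted cerebella, from -1.27 for Pcna, the sliding clamp of DNA polymerases, to -0.45 for Mcm7, a subunit of the replicative helicase, with a median of -0.81. Among all genes tested, 22% were lower. Their summed level was 1138 to 1402 CPM in Atr/Bax/Bak-deleted and 2131 to 2353 CPM in Bax/Bak-deleted cerebella. In the p53 background none of the 15 was called by edgeR (1, Rrm2, had an unadjusted p below 0.05), and the sums were 1550 to 2365 CPM in Atr/p53-deleted and 2138 to 2220 CPM in p53-deleted cerebella.

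Markers of the cell types in the tissue were checked beside this, where 22% of all genes tested were lower and 22.5% higher in Atr/Bax/Bak-deleted cerebella. Of 10 granule progenitor markers 9 were lower and 1, Gli1, was higher in Atr/Bax/Bak-deleted cerebella, with sums of 2065 to 2360 CPM against 2814 to 3321 CPM in Bax/Bak-deleted cerebella. Astroglial markers (6 of 6 higher, sums of 3863 to 5300 CPM in Atr/Bax/Bak-deleted and 2598 to 3035 CPM in Bax/Bak-deleted cerebella) and interneuron markers (4 of 4 higher, 479 to 612 and 298 to 374 CPM in the same groups) moved the other way. So did 5 of 6 Purkinje markers (sums of 1717 to 2397 CPM in Atr/Bax/Bak-deleted and 1507 to 1749 CPM in Bax/Bak-deleted cerebella), 5 of 6 oligodendrocyte markers (827 to 1549 and 569 to 841 CPM in the same groups) and 4 of 5 microglial markers (89.8 to 112 and 58.6 to 86.1 CPM). Of 7 granule neuron markers 4 were lower (1564 to 2044 CPM in Atr/Bax/Bak-deleted and 1930 to 2959 CPM in Bax/Bak-deleted cerebella), and 1 oligodendrocyte lineage marker, Pdgfra, was lower, while 0 of 4 endothelial, 0 of 4 meningeal and 0 of 3 erythroid markers were called. In the p53 background no marker of these lists was called by edgeR; the progenitor sums were 1899 to 2533 CPM in Atr/p53-deleted and 2549 to 2699 CPM in p53-deleted cerebella, and the granule neuron sums 966 to 1463 and 1447 to 1746 CPM in the same groups. No marker was at 0 in any group mean, the lowest being Gabra6, a late granule neuron gene, at 0.655 CPM in Atr/p53-deleted cerebella. The part of cell composition in the Chek1, Topbp1 and other results was not tested.

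**Figure D4:**
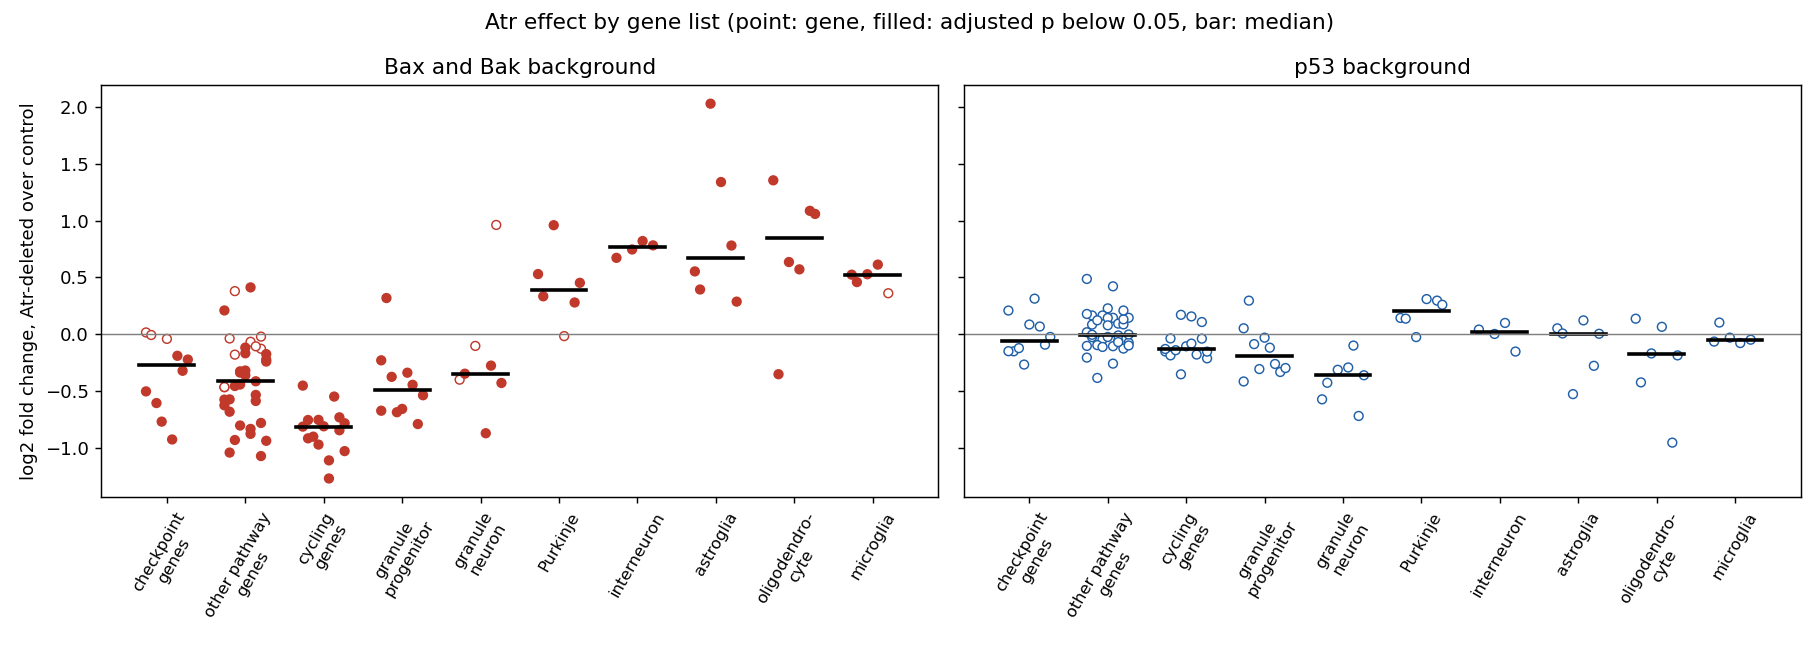
Log2 fold change of Atr-deleted over control libraries (vertical axis) for each gene of the checkpoint list, the other pathway genes, the cycling genes and cell type markers, in the Bax/Bak background (left) and the p53 background (right); filled points have an edgeR adjusted p below 0.05 and bars are medians. On the left the medians are -0.27 for the checkpoint genes, -0.41 for the other pathway genes and -0.81 for the cycling genes.

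Set against the summed level of the 15 cycling genes in the same library, the checkpoint genes fell into unlike patterns. Chek1 amounted to 1.02 ± 0.072% of that sum in Atr/Bax/Bak-deleted and 1.09 ± 0.086% in Bax/Bak-deleted cerebella, with overlapping libraries (SD, n = 5 and 4). Etaa1 amounted to 1.64 ± 0.049% and 1.56 ± 0.101% in the same groups, which also overlapped. Topbp1 amounted to 7.02 ± 0.348% in Atr/Bax/Bak-deleted and 5.97 ± 0.162% in Bax/Bak-deleted cerebella, without overlap. Wee1 (1.16% and 0.923%, same groups), Cdc25a (2.08% and 1.45%), Rad17 (1.99% and 1.27%) and Rad1 (1.28% and 0.833%) were also higher, without overlap. Among the genes not called, Hus1 amounted to 3.21 ± 0.259% in Atr/Bax/Bak-deleted and 1.80 ± 0.114% in Bax/Bak-deleted cerebella, and Atrip to 2.10 ± 0.307% and 1.15 ± 0.070%. Rad9a amounted to 0.532 ± 0.066% and 0.304 ± 0.016% in the same groups. The cycling sum averaged 1254 CPM in Atr/Bax/Bak-deleted and 2264 CPM in Bax/Bak-deleted cerebella. A gene of unchanged level, or one that falls by less than that sum, rises in this ratio wherever the sum is lower. In the p53 background Chek1 amounted to 1.18 ± 0.201% of the sum in Atr/p53-deleted and 0.886 ± 0.055% in p53-deleted cerebella (SD, n = 4 and 3), and the groups did not overlap. Atr/p53-deleted replicate 2, the library of lowest cycling sum in its group, had the highest Chek1 ratio, 1.45% against 1.04%, 1.24% and 1.02%. Atrip did not overlap either, by a narrow margin (lowest Atr/p53-deleted library 1.138%, highest p53-deleted library 1.134%). These ratios are given without a test, and the share of all genes that separate in them is not given here.

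**Figure D5:**
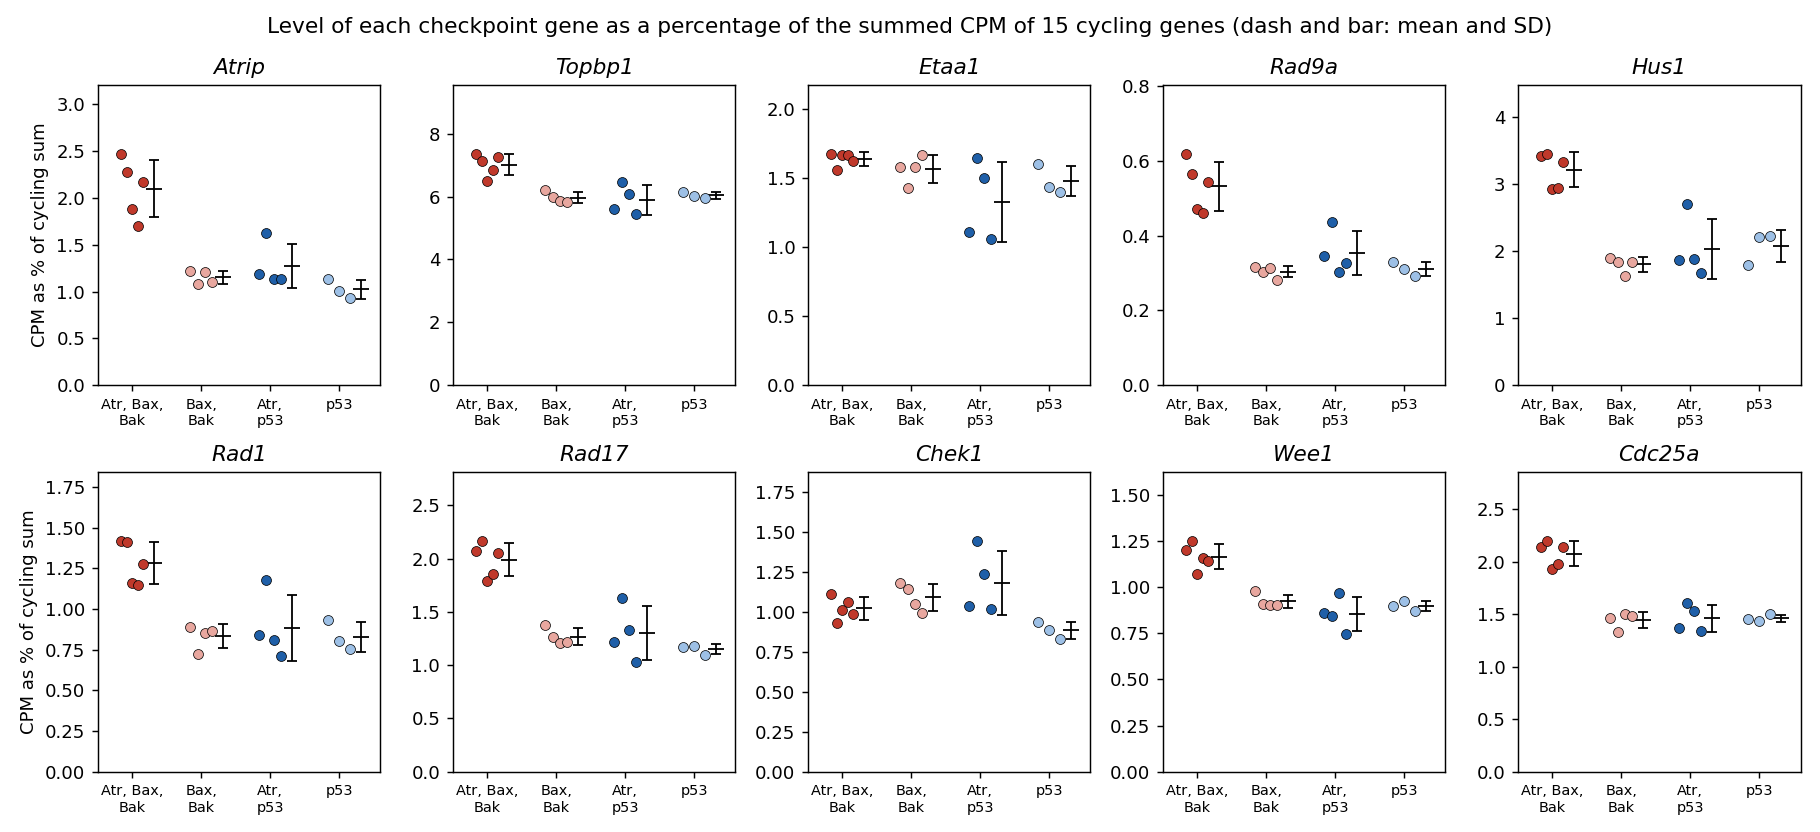
Level of each checkpoint gene as a percentage of the summed CPM of 15 cycling genes in the same library (vertical axes, from 0), by group, with mean and SD. Chek1 and Etaa1 overlap between Atr/Bax/Bak-deleted and Bax/Bak-deleted cerebella, whereas Hus1 lies at 2.92 to 3.44% in Atr/Bax/Bak-deleted and 1.63 to 1.89% in Bax/Bak-deleted cerebella.

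The genes whose log2 CPM followed a checkpoint gene most closely were looked up among 12332 genes with a mean of at least 5 CPM, over the same 16 libraries, as a description without a test, since the 4 groups and the scaling of each library are shared by all genes. For Chek1 they were Rad54b (Pearson r = 0.982), Smc4 (0.978) and Sgo1 (0.972), and for Topbp1 Brca1 (0.991), Kif15 (0.990) and Aurkb (0.989). For Wee1 they were D10Wsu102e (0.979), Anp32e (0.979) and Hnrnpm (0.972), and for Etaa1 Fdft1 (0.964), Rnd3 (0.960) and Ucma (0.954). Rad54b, a recombination helicase gene, was lower in Atr/Bax/Bak-deleted cerebella (log2 fold change -0.82, edgeR adjusted p = 0.000141) and was not called in the p53 background (0.29, edgeR adjusted p = 0.727).

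Positions are given on GRCm38. Atr and 4 of the 10 genes lie on chromosome 9: Chek1 at 36708482 to 36727065 (59.1 Mb from Atr), Topbp1 at 103305215 to 103350428 (7.35 Mb), Atrip at 109057933 to 109074124 (13.1 Mb) and Cdc25a at 109875579 to 109893895 (13.9 Mb). Of these, Chek1, Topbp1 and Cdc25a were lower in Atr/Bax/Bak-deleted cerebella and Atrip was not called. Of the 6 on other chromosomes, Etaa1 (chromosome 11), Rad17 (chromosome 13), Rad1 (chromosome 15) and Wee1 (chromosome 7) were lower, and Hus1 (chromosome 11) and Rad9a (chromosome 19) were not called. The 2 sequencing lanes of a library gave levels that differed by a median of 1.41% (Topbp1) to 5.15% (Rad1), and by at most 13.9% (Chek1).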

How the data were processed

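RNA was extracted from cerebella freed of meninges, and per the labels' protocols the libraries were stranded, poly-A selected and prepared by Illumina TruSeq. The tables that the authors deposited give an estimated count for each Ensembl transcript in each lane; these values need not be whole numbers and carry no recorded normalization. The submitters' processing notes name the builds GRCm38 and mm9 and the tools edgeR and kallisto 0.42.4, without their roles. An estimated count depends on how reads are divided among similar transcripts.

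Lanes were added and transcripts summed to genes by GENCODE M21 (GRCm38): 92284 of 94080 identifiers matched, and the rest held 0.779% to 1.04% of the counts. Sums were rounded. Libraries were grouped by genotype label, with the 13601-count library left out. Each background was fitted with edgeR 4.0.16 (R 4.3.3; TMM, default filter by group, robust quasi-likelihood F-test, Benjamini-Hochberg, 0.05), and the interaction and control difference over 16 libraries. Standard errors are the log2 fold change over the square root of F. CPM use TMM library sizes over the 16 libraries, and log2 CPM a prior count of 2; TPM use annotated transcript lengths. The fits were also run on simulated data with 200 changed genes, far fewer than were called in the Bax/Bak background. No result given here rests on that run. Precision covers counting error and the spread of 3 to 5 libraries.

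Alternatives were other scalings and filters, DESeq2 1.42.0, limma-voom 3.58.1, coding transcripts, single lanes, a threshold of 0.01, number series, a joint fit, the shallow library, and each library left out. The 10 genes and all lists were chosen with earlier results of these data known. Named beside them are the deleted genes, the 3 other pathway genes of smallest p in each direction per Atr comparison, the extremes of the cycling list, and the 3 genes most like each of Chek1, Topbp1, Wee1 and Etaa1; Gli1, Gabra6, Pdgfra, Rrm2 and the overlapping genes were named after their values were seen. Tables were made with pandas 2.3.3 and numpy 2.4.6 in Python 3.11.15, figures with matplotlib 3.10.9, and permutation tests with scipy 1.17.1.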

Additional observations from a re-analysis of the deposited data

Results flagged for a closer look

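In 30 groups of 4 or 5 libraries, 4 had a library far from the rest; chance gives about 1 in 20. Replicate 2 of the Atr/p53-deleted group was low in Topbp1, at 100.4 CPM, and in Cdc25a, at 24.9 CPM. In the same group replicate 4 was high in Etaa1, at 31.2 CPM. In the Atr/Bax/Bak-deleted group replicate 5 was low in Rad1, at 14.9 CPM.

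The Atr effects in the Bax/Bak and p53 backgrounds differed by the interaction test for 4 of the 10 genes. The differences on the log2 scale were -1.25 for Chek1, -0.51 for Etaa1, -0.49 for Topbp1 and -0.27 for Rad17.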

How the results depend on the processing

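No paired analysis was possible because the labels give no replicate numbers shared between the groups. The numbers of checkpoint genes called lower in the Bax/Bak background were 6 to 9 under all alternatives, with 0 called higher, and 0 were called in the p53 background under any. Of 950 alternative values of single genes, 883 kept direction and side of the threshold, 27 lost and 15 gained a call, and 25 changed sign. For the interaction, 2 genes were called at a threshold of 0.01, and 2 to 6 with a library left out. Between the controls, 3 were called with a mean of at least 1 CPM and by DESeq2, 0 with coding transcripts and at 0.01, and 0 to 3 with a library left out. The control counts over all genes moved as well. They were 661 to 2474 lower and 630 to 2224 higher over the alternatives, against 1690 and 1582 in the main fit. Over all genes the p53 background gave 8 higher and 0 lower, and 86 and 42 by DESeq2. The interaction counts over all genes were 557 to 1999 negative and 618 to 1796 positive over the alternatives, and those in the Bax/Bak background 2812 to 4421 lower and 2519 to 4297 higher. At these depths 1 count was far below the level of any of the 10 genes, the lowest being 6.29 CPM for Rad9a.

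Of the log2 fold changes, those that changed sign were within 0.1 of 0 in both fits, other than Atrip over coding transcripts and Hus1 in the p53 background (-0.15, SE 0.104, without number series). In the Bax/Bak background Atrip gave -0.0050 (median-of-ratios scaling), -0.014 (no filter), -0.0058 (DESeq2), -0.23 (coding transcripts), -0.074 (series 1842 controls), -0.0020 (joint fit) and -0.062 to 0.056 with a library left out. Hus1 gave 0.016 under upper-quartile scaling and in lane 1, and -0.050 to 0.014 with a library left out. In the p53 background Rad1 gave 0.0084 in lane 1 and -0.085 to 0.047 with a library left out. Hus1 gave 0.099 with number series, a fit that rests on control replicate 1 alone. Between the controls, upper-quartile scaling gave -0.0079 for Topbp1, -0.020 for Rad9a and -0.0074 for Cdc25a, and lane 1 gave -0.012 for Cdc25a; with a library left out Rad9a gave -0.016 to 0.046 and Rad1 -0.00044 to 0.13. The Atr RNA difference in the p53 background was -7.25 CPM with the shallow library. The 13601 counts of that library are too few to measure a gene at this level. With a library left out the difference was -0.843 to 1.32 CPM in the p53 background and -5.08 to -1.87 CPM in the Bax/Bak background. The causes were not tested. The interaction for Rad17 also lost its call with upper-quartile scaling, no filter, lane 1 alone and the shallow library (edgeR adjusted p from 0.0523 to 0.135).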
